A study of Mus musculus with 8 samples.

Results

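The 5 mouse miRNA hairpins miR-361, miR-872, miR-340, miR-335 and miR-744 each have an arm that was far lower in purified liver mitochondria than in whole liver. They were chosen by name, all 10 arms, because of that difference in these same libraries, so the contrast of mitochondria with whole liver is described here without a test. The 10 names are part of 862 listed over 8 small RNA libraries of male C57BL/6J mouse liver, and all of them were found. Mice of 8 weeks ate freely (ad libitum, AL) or were calorie-restricted (CR) for 12 weeks, with intake cut by 20% in the first week and by 40% in the other 11. Whole liver was 1 library per diet from a pool of 3 RNA samples, and mitochondria were 3 libraries per diet, isolated as mitoplasts (mitochondria stripped of the outer membrane) by differential centrifugation. No genetic change or drug is given for any group. Separate mice are not named as the source of these 3 libraries, so p-values measure only the spread between these libraries, which may be technical.

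A miRNA hairpin is cut by Drosha in the nucleus and by Dicer in the cytoplasm into a short duplex whose strands are the 5p arm and the 3p arm. Argonaute keeps one strand as the guide, which finds target mRNAs through its seed (bases 2 to 8), and the other strand is mostly degraded. Both arms come from the same transcript, so their ratio compares products of a single gene. miRNAs and Argonaute 2 have been reported inside mitochondria.

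The hairpins are shown because each gives both arms from a single stretch of RNA. Capitals mark the arm that was low in mitochondria, the 3p arm in miR-361, miR-340 and miR-335 and the 5p arm in miR-872 and miR-744. Sequences and positions are those of RefSeq on GRCm38.p6, written 5′ to 3′.
miR-361: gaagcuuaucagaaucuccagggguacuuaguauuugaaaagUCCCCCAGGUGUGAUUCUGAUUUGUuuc
miR-872: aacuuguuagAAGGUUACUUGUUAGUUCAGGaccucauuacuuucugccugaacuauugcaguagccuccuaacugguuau
miR-340: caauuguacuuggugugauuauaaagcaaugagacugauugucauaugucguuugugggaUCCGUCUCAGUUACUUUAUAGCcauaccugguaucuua
miR-335: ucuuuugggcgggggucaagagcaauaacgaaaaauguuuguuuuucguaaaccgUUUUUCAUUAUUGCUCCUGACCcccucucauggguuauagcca
miR-744: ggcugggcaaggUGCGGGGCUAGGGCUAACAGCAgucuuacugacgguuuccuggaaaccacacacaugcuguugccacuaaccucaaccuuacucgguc

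All 5 hairpins lie in an intron of a protein-coding gene on the same strand, by the GENCODE M21 annotation. miR-361 lies in Chm (chrX:113074824-113074893, minus strand), which encodes a Rab escort protein. miR-872 lies in Ift74 (chr4:94665157-94665237, plus strand), a gene of intraflagellar transport. miR-340 lies in Rnf130 (chr11:50069702-50069799, plus strand), which encodes a RING finger protein. miR-335 lies in Mest (chr6:30741299-30741396, plus strand), an imprinted gene expressed from the paternal allele. miR-744 lies in Map2k4 (chr11:65734733-65734832, minus strand), a kinase of the JNK pathway. Such a position is common: of 34 hairpins with both arms abundant in the pools and a match in RefSeq, 17 (50%) had every copy in a same-strand intron of a coding gene. miR-361, miR-872, miR-340 and miR-335 are themselves among these 17.

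The mature arms follow with the seed in capitals, to show that no seed recurs among them.
miR-361-3p: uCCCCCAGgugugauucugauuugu
miR-361-5p: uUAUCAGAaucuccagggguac
miR-872-5p: aAGGUUACuuguuaguucagg
miR-872-3p: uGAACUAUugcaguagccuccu
miR-340-3p: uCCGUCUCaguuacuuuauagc
miR-340-5p: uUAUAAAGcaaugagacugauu
miR-335-3p: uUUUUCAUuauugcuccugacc
miR-335-5p: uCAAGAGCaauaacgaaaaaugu
miR-744-5p: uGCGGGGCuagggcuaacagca
miR-744-3p: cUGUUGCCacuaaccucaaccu

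For all 10, the RefSeq sequence was the same as the one deposited with the values. None of the other names in the libraries shared a seed with any of them, none lay within 3 mismatches, and each sequence was found in no annotated GENCODE transcript other than its own hairpin. The mitochondria-poor arms were 21 to 25 nucleotides long and the partner arms 22 to 23. U was the first base of 4 of the 5 poor arms and of 4 of the 5 partners, against 108 of 217 annotated miRNAs at 10 RPM or more in both pools. U was the last base of 1 poor arm (miR-361-3p) and of 4 partners, against 78 of those 217. The A content was lower in the poor arm than in its partner for miR-361 (12.0% and 27.3%), miR-340 (18.2% and 40.9%) and miR-335 (13.6% and 52.2%), equal for miR-744 (22.7%) and slightly higher for miR-872 (23.8% and 22.7%). Across the 217 miRNAs the difference between mitochondria and whole liver followed none of length, GC, A, C, G or U content closely, the strongest of 6 Spearman's rho being 0.20, for A content. These miRNAs share the same 8 libraries, and the relation is a description only.

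The libraries held 2431564 and 3242002 assigned reads in the pools and 1070762 to 1577691 in mitochondria. Levels are in RPM, reads per 1000000 assigned to the listed names. The floor of 3 reads stood at 0.925 and 1.23 RPM in the pools and at 1.90 to 2.80 RPM in mitochondria. The 5 hepatocyte miRNAs summed to 463989 and 553007 RPM in whole liver, against 508083 to 702765 RPM in mitochondria. The members of this list went different ways in log2(RPM + 1), mitochondria minus pool. miR-122-5p stood at 0.71 under AL and 0.70 under CR. Lower in mitochondria were miR-122-3p (-0.43 and -0.54), miR-192-5p (-0.51 and -0.95) and miR-148a-3p (-0.13 and -0.79), and miR-194-5p is not given singly. Of the other cell types, the 5 stellate cell and fibroblast miRNAs summed to 14443 and 15573 RPM in whole liver against 25517 to 47282 RPM in mitochondria, and the 5 leukocyte miRNAs at 320 to 398 and 197 to 417 RPM. Within the stellate list miR-143-3p was higher in mitochondria (1.76 under AL and 1.21 under CR on that log2 scale). There miR-199a-5p was lower (-1.10 and -2.09), as was miR-145a-5p (-1.02 and -1.48). miR-199a-3p stood at 0.54 and -0.86, and miR-214-3p is not given singly. The endothelial pair summed to 14978 and 19607 RPM in whole liver, against 6694 to 9437 RPM in 5 mitochondrial libraries and 18066 RPM in CR replicate 2. The 3 erythroid miRNAs stood at 40.7 to 73.1 and 41.5 to 75.8 RPM, and the 3 muscle miRNAs at 27.6 to 35.5 and 17.5 to 161 RPM, with miR-206-3p at 0 in at least 1 mitochondrial library. CR mitochondrial replicate 2 stood apart with 97.6 RPM of the 3 pancreas miRNAs, against 2.11 to 6.17 RPM in the other libraries. miR-216a-5p and miR-217-5p of that list were at 0 in at least 1 mitochondrial library. It also had the lowest share of miR-122, 25.2% against 38.0% to 58.1% in the other mitochondrial libraries and 25.5% and 26.3% in the pools. The part of these differences in the results was not tested. The marker sums compare mitoplasts with whole liver in RPM, so they give no count of cells. As in any bulk sample, fewer cells of a type and less RNA per cell cannot be told apart.

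In miR-361 the 3p arm led in both pools, and the 5p arm had more reads in all 6 mitochondrial libraries. miR-361-3p stood at 355 RPM in the AL pool and 296 RPM in the CR pool, against 16.6, 6.39 and 17.6 RPM in AL mitochondria and 8.33, 21.6 and 16.8 RPM in CR mitochondria. miR-361-5p, reported to repress the angiogenic factor VEGFA, stood at 48.5 and 31.5 RPM in the pools, at 47.1, 14.6 and 27.4 RPM in AL and at 36.6, 24.7 and 19.6 RPM in CR mitochondria. All 6 mitochondrial libraries thus lay far below both pools for the 3p arm, whereas for the 5p arm the CR libraries lay on both sides of their pool.

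By mean level miR-361-3p was 26.2-fold lower in AL mitochondria (13.5 ± 6.20 RPM, SD, n = 3) than in the pool and 19.0-fold lower in CR mitochondria (15.6 ± 6.70 RPM, SD, n = 3). miR-361-5p was 1.63-fold lower under AL (29.7 ± 16.4 RPM, SD, n = 3) and 1.17-fold lower under CR (27.0 ± 8.74 RPM, SD, n = 3). The share of the 3p arm in the reads of both arms does not depend on how a library was scaled. It was 88.0% in the AL pool (exact 95% Clopper-Pearson interval 85.8% to 89.9%) and 90.4% in the CR pool (88.5% to 92.1%). In mitochondria it was 31.9% ± 6.60 (SD, n = 3) under AL and 37.1% ± 16.1 (SD, n = 3) under CR, and no mitochondrial library passed 46.6%. Single mitochondrial libraries held 23 to 73 reads of both arms, and their intervals lay below those of both pools. The lead of the 5p arm was within counting error in CR replicates 2 (39 reads against 34) and 3 (21 against 18). It was so in AL replicates 2 and 3 too. Both arms together fell short of their pools by 9.32-fold under AL and 7.69-fold under CR. Intervals here and below cover counting error only, since reads are not independent molecules.

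**Figure D1:**
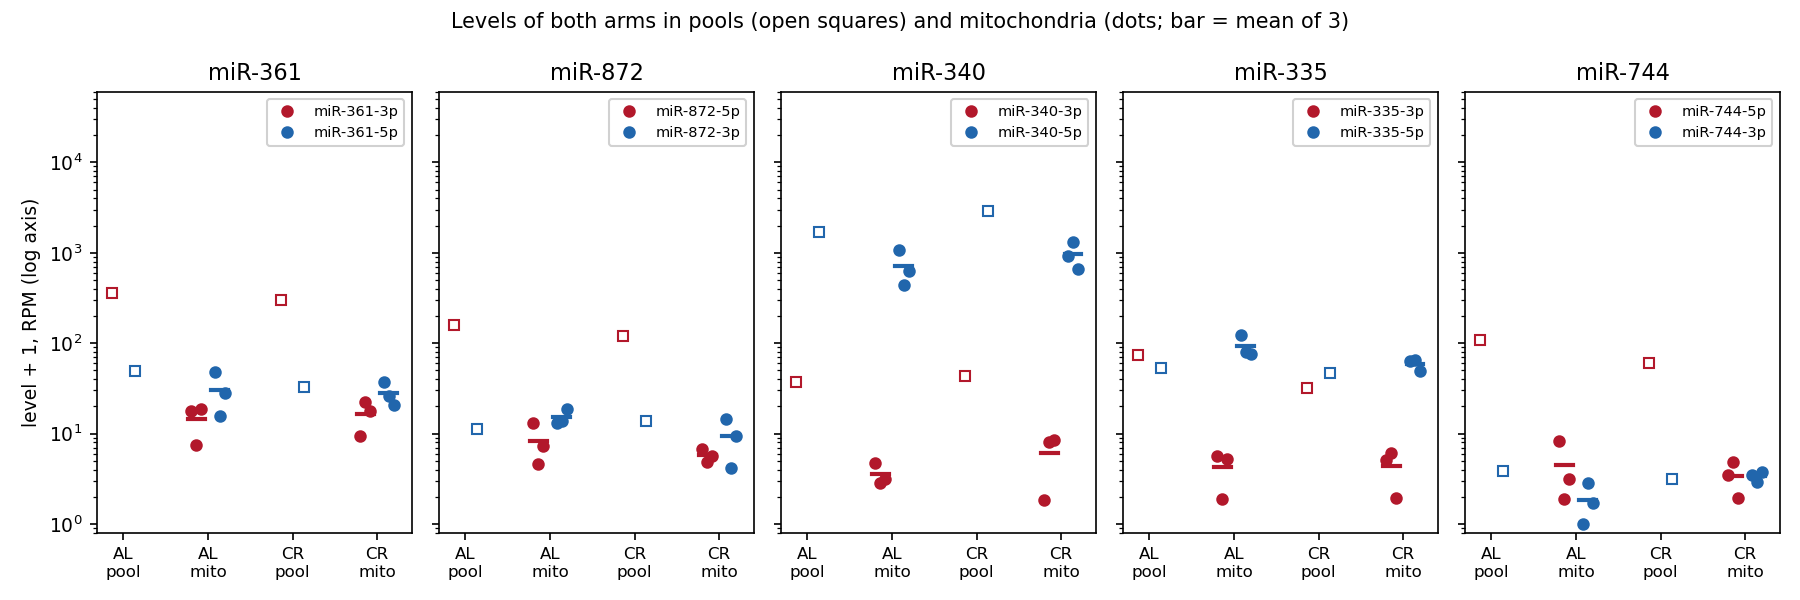
Level of each arm plus 1 RPM on a log axis, by group, for the 5 hairpins. Open squares are the whole-liver pools, 1 library each, dots are mitochondrial libraries, and bars are means of 3. The mitochondria-poor arm (red) drops in all 6 mitochondrial libraries, for miR-361-3p from 355 and 296 RPM to between 6.39 and 21.6 RPM, while its partner (blue) moves less.

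miR-872 showed the same pattern on the opposite arm. miR-872-5p stood at 158 and 118 RPM in the AL and CR pools, at 12.0, 3.65 and 6.33 RPM in AL and at 5.83, 3.80 and 4.67 RPM in CR mitochondria. miR-872-3p stood at 10.3 and 13.0 RPM in the pools, at 12.0, 12.8 and 17.6 RPM in AL and at 13.3, 3.17 and 8.41 RPM in CR mitochondria. The 5p arm was thus low in every mitochondrial library. The 3p arm was above its pool in the 3 AL libraries and below it in CR replicates 2 and 3.

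The mean of miR-872-5p was 21.5-fold below the pool under AL (7.33 ± 4.26 RPM, SD, n = 3) and 24.8-fold below under CR (4.77 ± 1.02 RPM, SD, n = 3). miR-872-3p averaged 14.1 ± 3.02 RPM (SD, n = 3) under AL and 8.30 ± 5.08 RPM (SD, n = 3) under CR. Its mean over both diets, -0.18 on the log2(RPM + 1) scale against the pools, turned positive with TMM factors (0.22), with miR-122 left out (0.21) and without CR replicate 2 (0.069). The 5p arm took 93.9% (91.1% to 96.0%) and 90.1% (86.9% to 92.8%) of the reads of both arms in the AL and CR pools. It took 32.9% ± 15.0 (SD, n = 3) under AL and 40.2% ± 12.7 (SD, n = 3) under CR in mitochondria. The arms were read 13 times each in AL replicate 1, and the 5p arm led only in CR replicate 2, with 6 reads against 5. The shares of single mitochondrial libraries rest on 11 to 34 reads.

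miR-335 differs in that its arms were near each other in whole liver. miR-335-3p stood at 72.8 RPM in the AL pool and 30.5 RPM in the CR pool, at 4.62, 0.913 and 4.22 RPM in AL and at 4.16, 5.07 and 0.934 RPM in CR mitochondria. miR-335-5p, known as a suppressor of metastasis in breast cancer, stood at 51.8 and 46.0 RPM in the pools, at 122, 78.5 and 75.2 RPM in AL and at 62.4, 63.4 and 48.6 RPM in CR mitochondria. All 6 mitochondrial libraries lay below both pools for the 3p arm and above the pool of their own diet for the 5p arm.

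The mean of miR-335-3p was 22.4-fold below its pool under AL (3.25 ± 2.03 RPM, SD, n = 3, from 12 reads in all) and 9.01-fold below under CR (3.39 ± 2.17 RPM, SD, n = 3, from 14 reads). AL replicate 2 and CR replicate 3 held 1 read each of this arm, under the floor of 3 reads. Single AL libraries lay 15.8-fold to 79.7-fold below the pool. The mean of miR-335-5p was 1.77 times its pool under AL (91.9 ± 26.0 RPM, SD, n = 3) and 1.26 times its pool under CR (58.1 ± 8.30 RPM, SD, n = 3). The 3p arm took 58.4% (52.6% to 64.0%) of the reads of both arms in the AL pool and 39.9% (33.8% to 46.3%) in the CR pool. In mitochondria it took 3.37% ± 2.09 (SD, n = 3) and 5.18% ± 2.91 (SD, n = 3). Since the partner was higher, both arms together were only 1.31-fold lower than the pool under AL and 1.24-fold lower under CR.

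In miR-340 the low arm was the minor arm everywhere. miR-340-3p stood at 36.6 and 42.9 RPM in the pools, at 3.69, 1.83 and 2.11 RPM in AL and at 0.833, 6.97 and 7.47 RPM in CR mitochondria. miR-340-5p, reported to slow the growth of several kinds of tumour cells, stood at 1679 and 2921 RPM in the pools, at 1083, 437 and 625 RPM in AL and at 928, 1313 and 667 RPM in CR mitochondria. Here both arms were below the pool of their own diet in all 6 libraries, the 3p arm by more.

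The mean of miR-340-3p was 14.4-fold below the pool under AL (2.54 ± 1.01 RPM, SD, n = 3, 9 reads in all) and 8.42-fold below under CR (5.09 ± 3.70 RPM, SD, n = 3, 20 reads). AL replicate 2, with 2 reads, and CR replicate 1, with 1 read, were under the floor of 3 reads for this arm. The mean of miR-340-5p was 2.35-fold below under AL (715 ± 332 RPM, SD, n = 3) and 3.01-fold below under CR (969 ± 325 RPM, SD, n = 3). The 3p arm took 2.13% (1.72% to 2.62%) and 1.45% (1.22% to 1.71%) of the reads of both arms in the pools, and 0.364% ± 0.0454 (SD, n = 3) under AL and 0.575% ± 0.511 (SD, n = 3) under CR in mitochondria. The highest mitochondrial share, 1.11% in CR replicate 3 (0.480% to 2.17%, from 8 reads of the 3p arm), had an interval that took in the shares of both pools. The interval of AL replicate 2 (0.0505% to 1.50%, from 2 reads of the 3p arm) took in the share of the CR pool.

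In miR-744 the 5p arm was low, and the contrast between its arms rests on few reads in mitochondria. miR-744-5p, reported to repress TGF-beta 1, stood at 107 and 59.2 RPM in the pools, at 7.38, 0.913 and 2.11 RPM in AL and at 2.50, 3.80 and 0.934 RPM in CR mitochondria. miR-744-3p stood at 2.88 and 2.16 RPM in the pools (7 reads in each), at 0, 1.83 and 0.703 RPM in AL and at 2.50, 1.90 and 2.80 RPM in CR mitochondria (0 to 3 reads). The 5p arm was below both pools in all 6 mitochondrial libraries. In AL replicate 2 and CR replicate 3 it had 1 read, under the floor of 3 reads. The 3p arm was at or under that floor in all 6 mitochondrial libraries, and its 0 in AL replicate 1 allows up to 2.77 RPM.

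The mean of miR-744-5p was 30.9-fold below the pool under AL (3.47 ± 3.44 RPM, SD, n = 3, 12 reads in all) and 24.6-fold below under CR (2.41 ± 1.44 RPM, SD, n = 3, 10 reads). Its share of the reads of both arms was 97.4% (94.7% to 98.9%) and 96.5% (92.9% to 98.6%) in the pools. In mitochondria it was 69.4% ± 33.7 (SD, n = 3) under AL and 47.2% ± 21.0 (SD, n = 3) under CR, and 100% on 8 reads in AL replicate 1. The share was below both pools in the other 5 libraries, which held 3 to 9 reads. In AL replicate 2 (0.840% to 90.6%) and CR replicates 1 (11.8% to 88.2%), 2 (29.9% to 92.5%) and 3 (0.631% to 80.6%) the interval did not meet that of the pool of the same diet, and in AL replicates 1 and 3 it did. The name of a mitochondria-poor arm therefore holds for miR-744-5p by its level, while that the partner was spared rests on 3 reads under AL and 9 under CR.

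**Figure D2:**
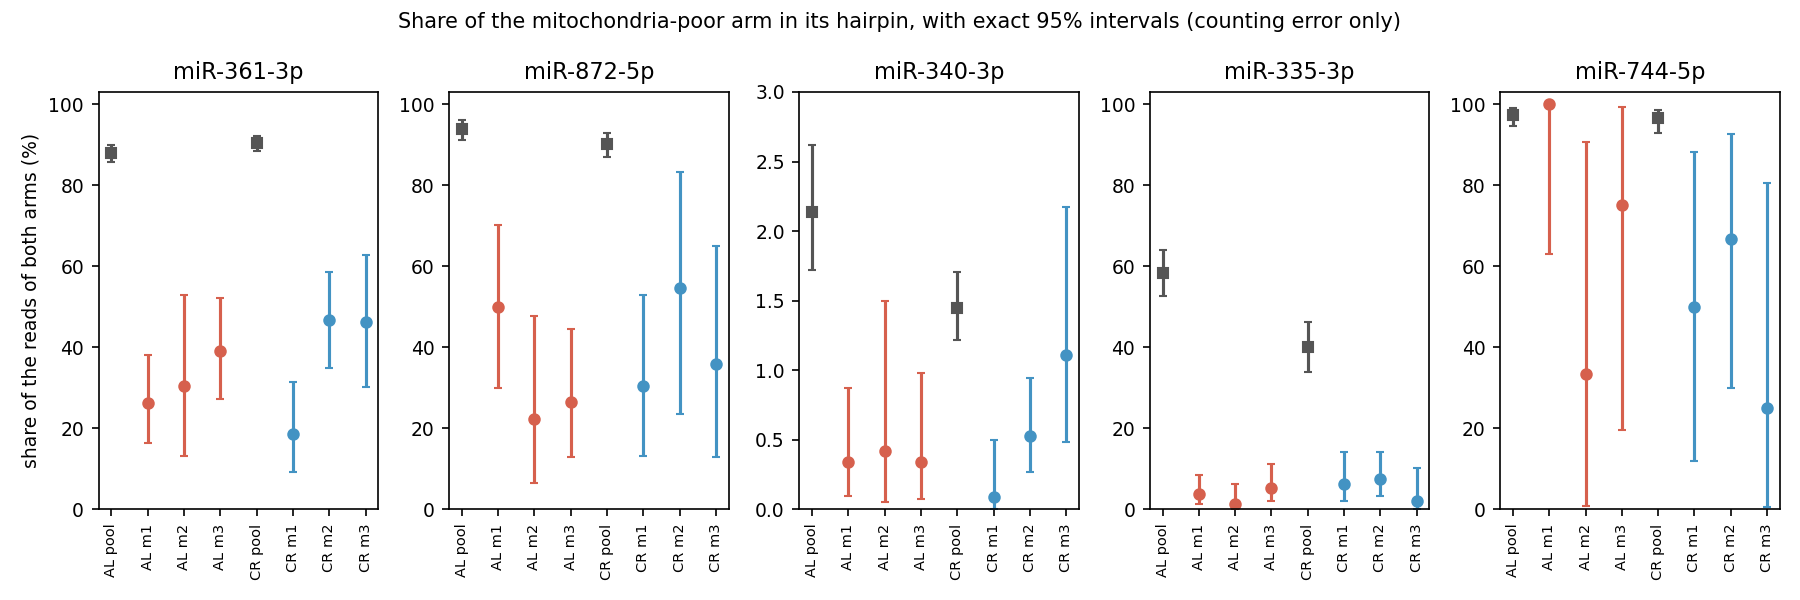
Share of the mitochondria-poor arm in the reads of both arms of its hairpin, in percent, per library (m1 to m3 are mitochondrial replicates), with exact 95% intervals. The panel of miR-340-3p has its own scale up to 3%. For miR-361-3p, miR-872-5p, miR-340-3p and miR-335-3p all 6 mitochondrial shares lie below both pools, and for miR-744-5p 5 of the 6 lie below both pools, on 3 to 9 reads each with wide intervals.

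These values were set against all other miRNAs in the same libraries. Of 218 miRNAs at 10 RPM or more in both pools, 22 (10.1%) were at least 4-fold lower in mitochondria under both diets on the log2(RPM + 1) scale, the 5 poor arms among them. Ranked from the lowest mean over both diets, miR-744-5p was the third, miR-361-3p the fourth, miR-872-5p the fifth, miR-335-3p the sixth and miR-340-3p the eighth. Only miR-221-5p and the unannotated novel_78 were lower than all 5, and miR-484 stood between miR-335-3p and miR-340-3p. The partners ranked at 54 (miR-340-5p), 107 (miR-361-5p), 141 (miR-872-3p) and 179 (miR-335-5p), and miR-744-3p was too low to rank. The median of all 218 was -0.54 under AL and -0.67 under CR. Over both diets it moved from -0.54 to -0.12 with TMM factors and to -0.14 with miR-122 left out. The 5 poor arms stayed between -4.38 and -2.90 under those 2 scalings, from between -4.56 and -3.29 on the deposited scale. Of the partners, miR-335-5p moved from 0.55 to 0.97 and miR-361-5p from -0.55 to -0.13 with TMM factors.

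Of the 5 hairpins, 4 had both arms at 10 RPM or more in both pools, among 44 such hairpins. Their arms differed by 4.20 (miR-872), 4.19 (miR-335), 3.94 (miR-361) and 1.80 (miR-340) in the log2 change from whole liver to mitochondria (ranks 2, 3, 4 and 12 by size). For miR-744 the same value was 4.01. The median of all 44 was 1.14. At least 4-fold in both diets, the same way, the arms differed in 10 of the 44 (22.7%), 3 of the 4 among them. Only miR-361 and miR-151 (2 of 44, 4.55%) had 1 arm ahead in both pools and the other arm ahead in all 6 mitochondrial libraries. For miR-361 the mitochondrial lead lay beyond counting error only in AL replicate 1 and CR replicate 1. The choice of the 5 hairpins used these values, and nothing is read from the counts.

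The other hairpins with large arm differences took several forms. In miR-221 the 5p arm was at -5.29 (AL) and -4.36 (CR) and the 3p arm at 0.22 and -0.13, a form like miR-872. In miR-192 and miR-378a it was the 3p arm that was higher in mitochondria, at 2.95 and 3.22 for miR-192-3p and 2.08 and 2.20 for miR-378a-3p, with the 5p arms between -0.95 and -0.51. In miR-106b the 5p arm was at 0.81 and 1.31 and the 3p arm at -2.01 and -2.54, and in miR-151 at 1.86 and 0.70 and at -1.78 and -1.38. A low arm beside a partner near its pool level was thus shared with miR-221. It was also seen, less strongly, in miR-532 (3p -2.66 and -2.18, 5p -0.11 and -0.64 under AL and CR). In miR-203 the 3p arm was at -1.62 and -1.50 and the 5p arm at 0.02 and 0.12. A low 3p arm beside a higher 5p arm, as in miR-335, was also seen in miR-106b and miR-151.

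**Figure D3:**
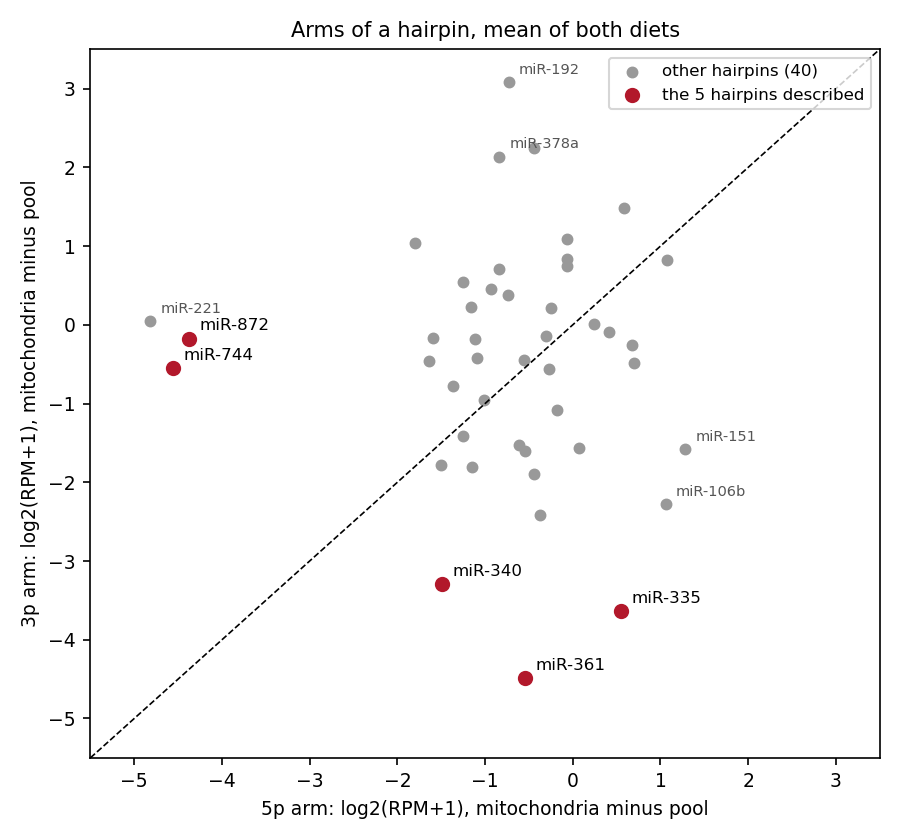
Change from whole liver to mitochondria of the 5p arm (x axis) and 3p arm (y axis) of each hairpin, in log2(RPM + 1), mean of both diets. Grey points are the 40 other hairpins with both arms at 10 RPM or more in both pools, red points the 5 described, and the dashed line marks equal change. miR-872 and miR-744 lie at the far left beside miR-221, and miR-335, miR-340 and miR-361 at the bottom.

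The miRNAs whose levels followed the poor arms most closely over the 8 libraries were largely other miRNAs that were low in mitochondria. Among 217 candidates the highest Pearson's r of log2(RPM + 1) were with miR-221-5p (0.99) and miR-378a-5p (0.97) for miR-361-3p, and with the same pair (0.97 and 0.96) for miR-340-3p. They were with miR-30c-2-3p (0.99) and miR-744-5p (0.98) for miR-872-5p, and with miR-744-5p (0.98) and let-7e-5p (0.97) for miR-335-3p. For miR-744-5p they were with miR-872-5p and miR-335-3p (both 0.98). Between the poor arm and its own partner r was 0.50 in miR-361, 0.21 in miR-872, 0.80 in miR-340 and -0.38 in miR-335. All of these values rest mostly on the gap between 2 pools and 6 mitochondrial libraries. miR-378a-5p matched in shape and not in size, with 109 and 121 RPM in whole liver against 55.7 to 74.7 RPM in mitochondria.

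The hairpins were not chosen by the difference between the diets within mitochondria, so that difference could be tested. In mitochondria none of the 10 arms was called as changed under CR. By limma-trend the adjusted p of the 10 arms lay between 0.522 and 0.990, and 2 of all 417 tested miRNAs were called (0.48%). At an unadjusted p under 0.05 stood 0 of the 10 by limma and by DESeq2 and 1 by edgeR (miR-340-5p, unadjusted p = 0.0302), against 12.71% of all 417 by limma, 9.83% by DESeq2 and 12.47% by edgeR. edgeR called 0 of the 10 and 10 of all (2.4%). DESeq2 called 11 of all (2.64%) and 0 of the 5 arms to which it gave an adjusted p. It gave none to miR-872-5p, miR-340-3p, miR-335-3p and both arms of miR-744. Of the 10 log2 fold changes 5 were above and 5 below 0, with a median of 0.00 against -0.17 for all tested miRNAs. With TMM factors 6 were above 0, the median of the 10 was 0.18 and that of all 0.01. Over the 299 alternative fits of these arms and of their ratios that gave an adjusted p, the lowest was 0.281.

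Among the poor arms the intervals of the fitted CR over AL differences all took in 0. They were 0.21 for miR-361-3p (95% interval -0.84 to 1.27), -0.42 for miR-872-5p (-1.52 to 0.69) and 0.04 for miR-335-3p (-1.26 to 1.34) on the log2(RPM + 1) scale. They were 0.53 for miR-340-3p (-0.78 to 1.84) and -0.21 for miR-744-5p (-1.53 to 1.12). The value of miR-340-3p was 1.30 in edgeR, 1.27 in DESeq2 and 1.25 without CR replicate 1 (95% interval 0.011 to 2.49, limma adjusted p = 0.387). That library held the lowest level of miR-340-3p, and leaving out CR replicate 2 or 3 gave 0.19 or 0.15. These intervals take in changes of 2-fold in 1 direction or both, so the test does not show that the levels were alike. In all 5 the AL and the CR libraries overlapped.

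Among the partners, miR-335-5p and miR-744-3p had groups that did not overlap, 2 of the 10 arms, against 18.9% of all tested miRNAs. For miR-335-5p all 3 CR libraries lay below all 3 AL libraries, which was the case in 13.9% of all tested miRNAs, with a log2 fold change of -0.63 (SE 0.36, limma adjusted p = 0.522). For miR-744-3p all 3 CR libraries lay above the AL libraries, as in 5.04% of all, with a log2 fold change of 1.0 (SE 0.60, limma adjusted p = 0.522) on 0 to 3 reads per library. On recovered reads miR-744-3p had 1.68 in edgeR (adjusted p = 0.579) and 1.74 in DESeq2. miR-872-3p had -0.86 (95% interval -1.93 to 0.22), miR-340-5p 0.49 (-0.30 to 1.27) and miR-361-5p -0.03 (-0.99 to 0.93), the last of which was above 0 with TMM factors (0.18), with miR-122 left out (0.11) and in edgeR (0.22) and DESeq2 (0.13).

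The balance of the arms within each hairpin was not called as changed with diet in mitochondria either. The CR minus AL difference in the log2 ratio of 5p over 3p was -0.24 for miR-361 (95% interval -1.67 to 1.19), 0.44 for miR-872 (-0.95 to 1.82) and -0.043 for miR-340 (-1.76 to 1.68). It was -0.66 for miR-335 (-1.98 to 0.65) and -1.21 for miR-744 (-3.59 to 1.18). The limma adjusted p lay between 0.755 and 0.986 over 111 hairpins, of which 0 were called (0%) and 9 stood at an unadjusted p under 0.05, none of the 5 among these. No other tool was run on the ratios. In each of the 5 the diet groups overlapped, whereas they did not in 11.7% of the 111 (CR lower in 6.31%, higher in 5.41%).

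In the pools, which have no replicate check, some of these arms differed between the diets by more than counting error. miR-335-3p was 2.38-fold lower in the CR pool (exact 95% interval 1.85 to 3.08), and miR-744-5p 1.81-fold lower (1.50 to 2.20). miR-361-5p was 1.54-fold lower (1.17 to 2.03), miR-872-5p 1.33-fold lower (1.15 to 1.54) and miR-361-3p 1.20-fold lower (1.09 to 1.32). miR-340-5p was 1.74-fold higher in the CR pool (1.68 to 1.81). For miR-335-5p, miR-872-3p, miR-340-3p and miR-744-3p the interval took in a ratio of 1.

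Of the 10, 1 passed 2-fold lower in the CR pool, miR-335-3p, and 0 passed 2-fold higher, against 7% and 4.12% of the 243 miRNAs at 10 RPM or more in a pool. The median log2 ratio of those 243 was -0.22. Within miR-335 the diet difference in the pools lay on the 3p arm, whose share of both arms was 58.4% under AL and 39.9% under CR with intervals that did not meet. These ratios compare 2 libraries, not the diets.

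**Figure D4:**
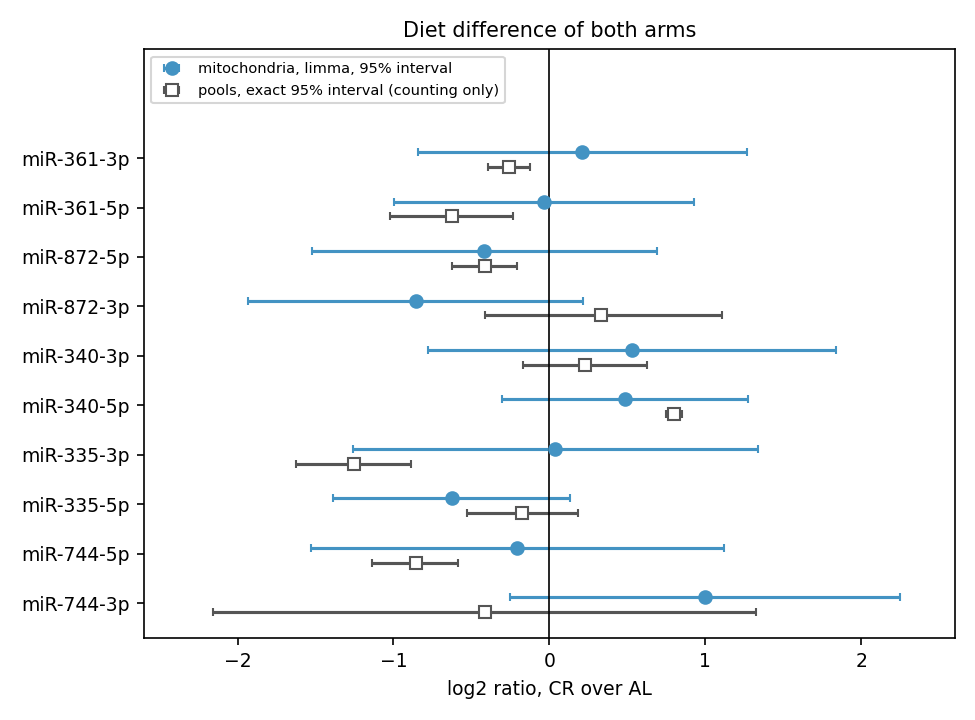
Diet difference of the 10 arms as the log2 ratio of CR over AL. Blue dots are the limma estimates in mitochondria (3 libraries per diet) with 95% intervals, and open squares the ratio of the 2 pools with exact 95% intervals for counting error. All 10 mitochondrial intervals cross 0, and the pool interval of miR-335-3p lies below 0.

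Whether the gap between mitochondria and whole liver depended on diet was tested with an interaction term over all 8 libraries, with the pools taken to have the spread of the mitochondrial ones. By limma 0 of 417 miRNAs were called (0%), with 5 at an unadjusted p under 0.05 and none of the 10 arms among them, and edgeR and DESeq2 also called 0, with 18 and 8 at an unadjusted p under 0.05. The largest of the 10 differences were 1.30 for miR-744-3p (95% interval -1.16 to 3.75), 1.26 for miR-335-3p (-1.21 to 3.74) and -1.16 for miR-872-3p (-3.34 to 1.01). For miR-872-5p the value was -0.01 (-2.04 to 2.03). The interval reached a 4-fold difference between the diets in at least 1 direction for every arm other than miR-340-5p, so a difference of that size was not excluded in the other 9. The hairpins were chosen for gaps seen under both diets in these same libraries. That choice favours alike gaps, so the lack of calls among the 10 arms says little about the diet.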

How the data were processed

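Per the file headers and values, the authors deposited 1 table per library with a name, a mature sequence and an RPM value (a column headed tpm that sums to 1000000, with no length scaling), and names at 0 were left out. Reads were mapped with Bowtie to mm9, per the submitters' processing notes. Name assignment, mismatches, multiple hits and strand are not given in the sources used here. All deposited RPM values were whole multiples of the smallest in their library (100% within 0.01 read), so reads were recovered. A missing name counted as 0.

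Differences were fitted on the log2(RPM + 1) scale with limma-trend (R 4.3.3, limma 3.58.1) for the 417 miRNAs that reached 1 RPM in 3 or more libraries, and on the log2 ratio of the arms of 111 hairpins, with Benjamini-Hochberg adjustment over all and a threshold of 0.05. A fold change on this scale understates that of low miRNAs. edgeR 4.0.16 (quasi-likelihood, TMM) and DESeq2 1.42.0 were run on recovered reads (10 and 11 miRNAs called with the diet in mitochondria). Intervals for shares and for ratios of pools are exact 95% Clopper-Pearson (scipy 1.17.1, Python 3.11.15). The fit code was run on simulated data with large planted changes, to check that they came back. That run did not measure the power for small changes or for arms near the floor. The members, lists and tests were chosen with earlier results of these data known. In addition to the 10 arms, the 2 miRNAs most like each poor arm and the 5 other hairpins with the largest arm differences were named by a fixed rule. The hairpins miR-532 and miR-203 were added later for their values. novel_78 and miR-484 were named after their values were seen.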

Additional observations from a re-analysis of the deposited data

Results flagged for a closer look

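For miR-744-3p the diet difference went opposite ways in the fractions: all 3 CR mitochondrial libraries lay above all 3 AL libraries, by 1.0 on the log2(RPM + 1) scale, while the CR pool, at 2.16 RPM, lay below the AL pool, at 2.88 RPM. The pools held 7 reads of it each and the mitochondrial libraries 0 to 3. The difference itself was tested by the interaction of diet and fraction, which limma did not call (1.30, adjusted p = 0.998). Over its alternatives the adjusted p lay between 0.832 and 0.999.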

How the results depend on the processing

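The arm differences of the 5 hairpins between mitochondria and whole liver moved by less than the spread between replicates under every alternative run. They are given here as poor arm minus partner, in the log2 change from whole liver to mitochondria. Leaving out single mitochondrial libraries they ranged from -4.10 to -3.64 (miR-361), -4.45 to -4.05 (miR-872), -2.11 to -1.44 (miR-340), -4.36 to -3.98 (miR-335) and -4.49 to -3.59 (miR-744). None of the 10 arms or 5 ratios was called with the diet or the interaction in any of the 299 refits that gave an adjusted p, the lowest being 0.281. DESeq2 gave none in the other 5, all for the diet in mitochondria. The count of all miRNAs called with the diet in mitochondria, 1 higher and 1 lower, was 5 (4 and 1) with TMM factors, 4 (3 and 1) without miR-122, 10 (8 and 2) with edgeR and 11 (7 and 4) with DESeq2. It was 4 with the filter of 10 RPM and 10 with no filter. It ranged from 0 to 5 when single libraries were left out, 5 without AL replicate 1, 1 without CR replicate 3 and 0 without any other. With no filter the interaction called 129, of which 125 were at 0 in all 6 mitochondrial libraries and so had no residual spread. The interaction of miR-872-5p turned positive with TMM factors (0.14) and without miR-122 (0.10), and the diet difference of miR-361-5p at 0.18, 0.11, 0.22 (edgeR) and 0.13 (DESeq2). The gap of miR-872-3p turned at 0.22, 0.21 and 0.069 (without CR replicate 2). These alternatives for the gap of single arms were chosen after seeing the data. Signs also turned when single libraries were left out. The diet difference ranged from -0.22 to 0.58 (miR-361-3p), -0.45 to 0.36 (miR-361-5p), -0.46 to 0.55 (miR-335-3p) and -0.68 to 0.39 (miR-744-5p). The interaction ranged from -0.36 to 0.38 (miR-872-5p), -0.077 to 1.03 (miR-340-3p) and -0.62 to 0.037 (miR-340-5p), and the arm ratio from -0.85 to 0.065 (miR-361) and -0.76 to 0.58 (miR-340). The cause was not tested.

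With the replicate number as a block, 5 miRNAs were called with the diet (1 higher and 4 lower) and 0 arm ratios, none of them among the 10 arms. By limma 72 of 417 miRNAs then stood at an unadjusted p under 0.05 (53 without the block). For the ratios it was 17 of 111 (9 without the block). Same-numbered AL and CR libraries had correlations of deviations of 0.36, 0.09 and 0.10. Libraries with different numbers had -0.28 to 0.20, the highest being AL replicate 2 with CR replicate 3. These values do not settle whether the numbers pair the samples, and the main fits did not pair them. Depth limits the low arms most, since miR-335-3p, miR-340-3p and both arms of miR-744 had at most 11 reads in any mitochondrial library.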
